A study of Mus musculus with 4 samples.

Results

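The JAK, STAT, SOCS and PIAS genes are the genes whose symbol in the deposited table starts with Jak, Stat, Socs or Pias and a digit, or is Tyk2 or Cish. This rule gave 9 of the 5807 listed genes, and 8 are described here, namely Jak1, Stat2, Stat5b, Stat6, Socs1, Socs3, Pias1 and Pias3. Eosinophils were sorted from wild-type mice whose pleural space had been injected with LLC, a line derived from a Lewis lung carcinoma of the mouse. Cells of the pleural lavage fluid, collected on day 2, made up one group and cells of the bone marrow of such mice the other, with 2 libraries each, and both groups carried the WT genotype and the same tumor challenge. The methods give an age of 6 to 8 weeks for the mice. In its results the study calls the bone marrow cells naïve, while the labels and methods name mice with LLC, and the labels are followed here. Bone marrow was enriched with F4/80 beads and pleural cells with CD45, and both gates took Siglec-F-positive cells of high side scatter. The gates differed. The pleural cavity gate also required CD11b and F4/80 and left out CD11c-positive and Gr1-high cells, and the bone marrow gate, which required CD45, did not. The study compared both groups to characterize eosinophils that had entered the pleural cavity.

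Cytokine receptors without enzyme activity of their own depend on Janus kinases (JAK) bound to their tails. Once a cytokine binds, the JAKs phosphorylate the receptor and then signal transducers and activators of transcription (STAT), which pair, enter the nucleus and switch on target genes. Suppressors of cytokine signaling (SOCS) are among these targets and close a negative feedback loop, while protein inhibitors of activated STAT (PIAS) are SUMO ligases that restrain STATs in the nucleus. Eosinophils are built and kept alive through this route by IL-5, and IL-4 and IL-13 act on them through STAT6.

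The table holds genes that the authors listed as differing between the tissues, so each of the 8 had already been picked by their comparison, and a gene that is not listed has no value here and is given no direction. The kinase genes Jak2, Jak3 and Tyk2, the SOCS genes Cish, Socs2, Socs4, Socs5, Socs6 and Socs7, and Pias2 and Pias4 were not listed, nor were Stat3 and Stat5a. Each value below is the authors' mean over the libraries of a tissue. No value per library was analysed, so no spread between replicates, depth of a library or test could be computed, and agreement between libraries was not tested. Summed over all listed genes, the mean reads came to 1.59474e+07 in the pleural cavity and 1.17625e+07 in the bone marrow, which is not the depth of a library. Mean reads are therefore given as deposited and as RPM, here the reads of a gene for every 1000000 reads of all listed genes. Ratios are of RPM, pleural cavity over bone marrow, unless another scale is named.

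All 8 genes had a higher RPM in pleural cavity than in bone marrow eosinophils, as did 42.5% of all listed genes, although Stat5b and Pias1 were lower when the tissues were scaled by the median ratio of abundant listed genes. Stat6, Socs1 and Socs3 were over 2-fold higher, 3 of 8 against 16.0% of all listed genes, and none of the 8 was over 2-fold lower, as 50.5% of all listed genes were. Many listed genes rested on few reads, with 1042 at no more than 3 mean reads in pleural cavity eosinophils. Among the 4544 with at least 100 mean reads in 1 tissue, 53.1% were higher and 19.3% over 2-fold higher. The median log2 ratio of the 8 genes was 0.76, against -1.02 over all listed genes and 0.33 over these 4544. In bulk samples fewer cells of a type and less RNA per cell cannot be told apart. Such counts describe 8 genes picked for differing and say nothing of the spread between mice. The study lists genes over 2-fold apart in its own comparison and reports a smaller share of them as higher than the 42.5% here. That 42.5% counts differences of any size. Of genes past 2-fold under the main scaling 24.1% were higher, still above the study's share. More genes were higher here than the study calls higher, so some listed genes must differ in direction between both comparisons. Whether any of the 8 do was not examined. The ratios here rest on another scaling, and many listed genes do not pass 2-fold on it. A scaling moves every log2 ratio by the same amount, and under none of those tried did all listed genes pass 2-fold. With unscaled reads 1770 were over 2-fold higher and 2510 over 2-fold lower. Jak1, Stat5b and Pias1 stayed under 2-fold in every scaling tried, with log2 ratios of at most 0.90, 0.87 and 0.77. Why this differs from the study's comparison was not tested.

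**Figure D1:**
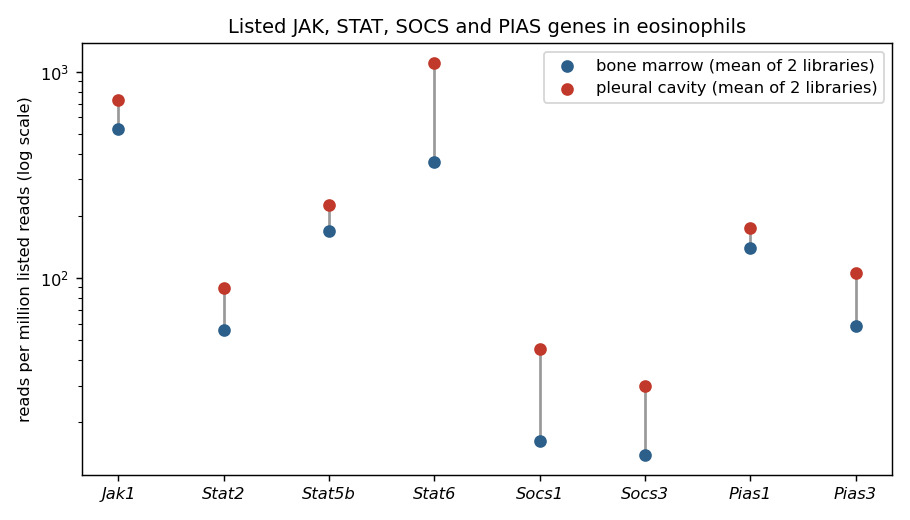
RPM (reads scaled to the total of listed genes), on a log axis, of the 8 genes in bone marrow (blue) and pleural cavity (red) eosinophils, each point the authors' mean over 2 libraries scaled here, with a line joining both tissues. Every red point lies above the blue one, from 1.26-fold for Pias1 to 3.02-fold for Stat6, though Stat5b and Pias1 turn under median ratio scaling.

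Sequences before the start sites of 4 of these genes are shown first, because Socs1, Socs3 and Stat6 had the 3 largest ratios and Stat2 and both SOCS genes held the motif matches found. They come from RefSeq on GRCm38.p6, are written 5′ to 3′ on the strand of the gene, and stop before any exon that GENCODE gives the gene. Capitals mark the matches. STAT dimers are known to bind TTCNNNGAA, read the same on both strands, and STAT6 also binds TTC and GAA with 4 bases between them. The core of the interferon-stimulated response element was searched as GAAA, any 2 bases and GAAA, on both strands.
Socs1, chr16:10785537-10785786, minus strand: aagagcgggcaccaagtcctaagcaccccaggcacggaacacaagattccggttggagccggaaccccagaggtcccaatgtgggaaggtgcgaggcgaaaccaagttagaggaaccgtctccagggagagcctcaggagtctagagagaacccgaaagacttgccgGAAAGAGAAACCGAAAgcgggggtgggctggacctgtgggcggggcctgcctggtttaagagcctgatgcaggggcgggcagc
Socs3, chr11:117969452-117969616, minus strand: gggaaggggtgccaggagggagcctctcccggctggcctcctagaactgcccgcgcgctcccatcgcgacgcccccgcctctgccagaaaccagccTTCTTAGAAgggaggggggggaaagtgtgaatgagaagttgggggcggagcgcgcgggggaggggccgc
Stat2, chr10:128270248-128270497, plus strand: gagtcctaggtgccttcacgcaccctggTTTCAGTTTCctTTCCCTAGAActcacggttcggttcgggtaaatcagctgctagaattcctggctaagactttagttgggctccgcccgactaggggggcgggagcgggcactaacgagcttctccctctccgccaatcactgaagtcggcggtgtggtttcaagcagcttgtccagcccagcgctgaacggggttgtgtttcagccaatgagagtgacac
Stat6, chr10:127642736-127642985, plus strand: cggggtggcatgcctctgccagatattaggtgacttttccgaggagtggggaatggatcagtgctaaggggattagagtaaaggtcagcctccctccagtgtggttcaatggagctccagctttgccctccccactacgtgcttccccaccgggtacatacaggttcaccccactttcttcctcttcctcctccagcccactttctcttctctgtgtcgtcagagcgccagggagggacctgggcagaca

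In Socs1 the capitals cover 2 overlapping matches to the response element core, at -83 to -74 and -77 to -68 counted from the RefSeq start site, where -1 is the last base before it. In Stat2 a match to this core on the other strand, at -222 to -213, stood 2 bases from a TTC and GAA pair 4 bases apart at -210 to -201. Socs3 held a TTCNNNGAA match at -154 to -146. Its RefSeq start lies 180 bases before the start of the GENCODE coding transcript, and the stretch shown is intronic to 1 longer noncoding Socs3 transcript. The starts of Socs1 and Stat6 coincide in both annotations, and that of Stat2 lies 78 bases before the GENCODE coding start. Stat6 held none of the 3 motifs in its window.

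Windows of 250 bases before to 50 bases after the start were matched for all 8 genes, 10 windows in all. TTCNNNGAA was found in 1 of the 10, against 8.30% of all 32851 promoter windows and 7.07% of the 6036 windows of listed genes. The pair 4 bases apart was also found in 1 of the 10, against 6.95% of all windows. The response element core was found in 2 of the 10, against 3.44% of all windows and 4.80% of the 979 windows of listed genes over 2-fold higher. These matches describe letters in the windows, and binding was not measured.

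**Figure D2:**
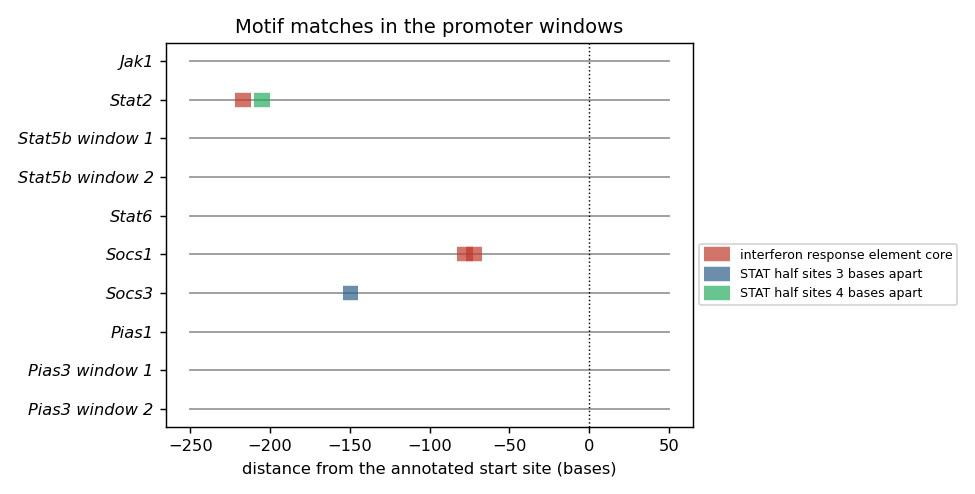
Positions of motif matches in the 10 promoter windows of the 8 genes, as distance in bases from the RefSeq start site (dotted line), 1 window a row, with blocks for matches and grey lines for the window. Matches fall in Socs1 (2, overlapping), Socs3 (1) and Stat2 (2), and the other windows are empty.

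Jak1 (GRCm38 chr4:101152367-101265282, minus strand) was the only listed kinase. It encodes the JAK that serves interferon, gp130 and common gamma chain receptors, and its longest annotated transcript has 25 exons. Jak1 had 11613.8 mean reads in the pleural cavity against 6230 in the bone marrow. In RPM these were 728.3 and 529.6, a ratio of 1.37 (log2 0.46). With reads summed over 2 libraries, counting error alone gives a 95% exact binomial interval of 0.43 to 0.49 on the log2 scale, and intervals given below are of this kind and leave out the spread between mice. Under this scaling the difference exceeds counting error, whereas under median ratio scaling its log2 ratio of 0.016 does not. Jak1 had already been picked for differing in these same reads, so the interval is no independent evidence of a difference. Its mean reads were fractional, as values can be where RSEM splits a read among matching transcripts, and a processed pseudogene, Gm12785, lies within its span.

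Stat6 transduces IL-4 and IL-13 signals. The gene lies at chr10:127642986-127660957 on the plus strand, and had 17585.5 mean reads in the pleural cavity against 4293.5 in the bone marrow, neither of them fractional. In RPM these were 1102.7 and 365.0, a ratio of 3.02 and the largest of the 8 (log2 1.60, interval 1.56 to 1.63). By ratio Stat6 ranked 450 among the 5807 listed genes, at percentile 92.3. Nab2, also listed, overlaps Stat6 on the other strand, and strand use in counting is not given in the sources used here.

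Stat2 is part, with Irf9, of the complex ISGF3 that carries type I interferon signals. At chr10:128270559-128292849, it had 1418.87 mean reads in the pleural cavity against 659.84 in the bone marrow. In RPM these were 88.97 and 56.10, a ratio of 1.59 (log2 0.67, interval 0.57 to 0.76). Its ratio stood between those of Jak1 and Pias3, and its reads were fractional.

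Stat5b carries IL-5, IL-3 and GM-CSF signals together with its close paralog Stat5a. It lies at chr11:100780731-100850724, with Stat5a 8627 bases away on the other strand and Stat3 34374 bases away. Stat5b had 3615.71 mean reads in the pleural cavity against 1980.38 in the bone marrow. In RPM these were 226.7 and 168.4, a ratio of 1.35 (log2 0.43, interval 0.37 to 0.49). Stat5a has a similar coding sequence and was not listed, and the reads of Stat5b were fractional, so their division between the paralogs is uncertain.

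Socs1 blocks JAK activity directly and is known for restraining interferon gamma and IL-4 signals. At chr16:10782240-10785536, it had 719.5 mean reads in the pleural cavity against 190.5 in the bone marrow. In RPM these were 45.12 and 16.20, a ratio of 2.79 (log2 1.48, interval 1.31 to 1.64). Socs3, which binds gp130 and the G-CSF receptor as well as JAKs, lies at chr11:117966079-117970047. It had 474 and 162 mean reads, or 29.72 and 13.77 RPM, a ratio of 2.16 (log2 1.11, interval 0.93 to 1.30). Both SOCS genes had the fewest reads of the 8 in either tissue, so their intervals are the widest, and the interval of Socs3 reaches under a ratio of 2. Neither had fractional reads.

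Pias1 and Pias3 encode SUMO ligases that act on STATs and other nuclear factors. Pias1, at chr9:62878368-62987924, had 2788.5 mean reads in the pleural cavity against 1635 in the bone marrow. In RPM the ratio was 1.26 (174.9 against 139.0, log2 0.33, interval 0.27 to 0.39), the smallest of the 8. Pias3, at chr3:96696384-96706070, had 1684.65 and 684.99 mean reads, or 105.6 and 58.23 RPM, a ratio of 1.81 (log2 0.86, interval 0.77 to 0.95). Nudt17, also listed, overlaps Pias3 on the other strand, and the reads of Pias3 were fractional.

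Ratios also depend on how the tissues are brought to 1 scale, and 5 other scalings were tried. Stat6 and Socs1 stayed over 2-fold higher under all 5. Socs3 ranged from log2 0.67 to 1.55, Pias3 from 0.42 to 1.30 and Stat2 from 0.22 to 1.10. Jak1 came down to log2 0.016 under the median ratio of abundant listed genes. Under that scaling Stat5b and Pias1 had log2 ratios of -0.014 and -0.11, so 6 of the 8 were higher, and both were higher under the other 4 scalings. That median is taken over genes listed for differing, with unlisted genes absent.

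**Figure D3:**
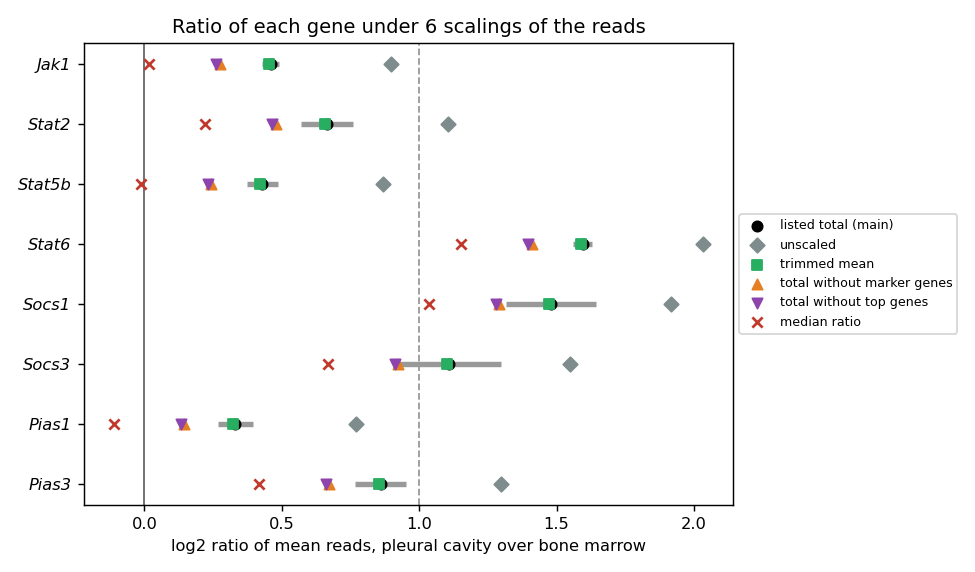
Log2 ratio of mean reads, pleural cavity over bone marrow eosinophils, for each of the 8 genes (rows) under 6 scalings (symbols), with 95% counting intervals of the main value as grey bars and a dashed line at 2-fold. Stat6 and Socs1 lie right of the dashed line throughout, and Stat5b and Pias1 cross 0 under the median ratio.

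Levels of different genes were compared as RPM per kilobase of the longest annotated transcript, a scale on which 5656 listed genes had a length. In bone marrow eosinophils Jak1 led with 108.0, ahead of Stat6 with 96.69, Stat5b with 32.30, Pias1 with 24.98, Pias3 with 19.87 and Stat2 with 12.76. Socs1 at 5.57 and Socs3 at 5.40 came last and were 1.03-fold apart. In pleural cavity eosinophils Stat6 led with 292.1, 1.97-fold over Jak1 at 148.4, while Stat5b stood at 43.49. Pias3 at 36.04 came before Pias1 at 31.43, the reverse of bone marrow, and Stat2 followed at 20.23, Socs1 at 15.51 and Socs3 at 11.65. With the mean in place of the longest transcript length, Stat6 was 1.57-fold over Jak1 in the pleural cavity and Stat5b came after both PIAS genes there. Without a spread between libraries, it cannot be said which neighbors in either order differ. Among the 5656 genes Stat6 held rank 241 in the pleural cavity against 688 in the bone marrow, Jak1 ranks 534 and 615, and Socs1 ranks 2371 and 3692.

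Shares within a tissue do not depend on the scaling between tissues, but do depend on the transcript length used. Of the summed level of Stat2, Stat5b and Stat6, Stat6 made up 82.1% in the pleural cavity against 68.2% in the bone marrow. The share of Stat5b was 12.2% against 22.8%, and that of Stat2 was 5.69% in the pleural cavity and also larger in the bone marrow. Of these 3 genes Stat6 alone had the larger share in the pleural cavity. Its level was 6.72 times that of Stat5b in the pleural cavity against 2.99 times in the bone marrow, and 14.4 and 7.58 times that of Stat2. With the mean transcript length Stat6 was 14.4 and 6.42 times Stat5b and made up 88.9% and 79.2%. The level of Stat5b was 2.15 and 2.53 times that of Stat2. Other STAT genes are not part of these shares.

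Relative to Jak1, Socs1 had a 2.03-fold and Socs3 a 1.57-fold higher ratio in pleural cavity than in bone marrow eosinophils, so both inhibitors differed more than the listed kinase. The level of Jak1 was 9.57 times that of Socs1 in the pleural cavity against 19.4 times in the bone marrow, or 35.7 and 72.4 times with the mean transcript length. Relative to Stat5b the level of Socs1 was 0.357 against 0.172, a 2.07-fold difference. Relative to Stat6, however, Socs1 stood at 0.0531 in the pleural cavity against 0.0576 in the bone marrow, so Socs1 and Stat6 differed by nearly the same factor. Summed over each family, the RPM ratio was 2.50 for the SOCS genes, 2.41 for these 3 STAT genes, 1.42 for the PIAS genes and 1.37 for Jak1.

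**Figure D4:**
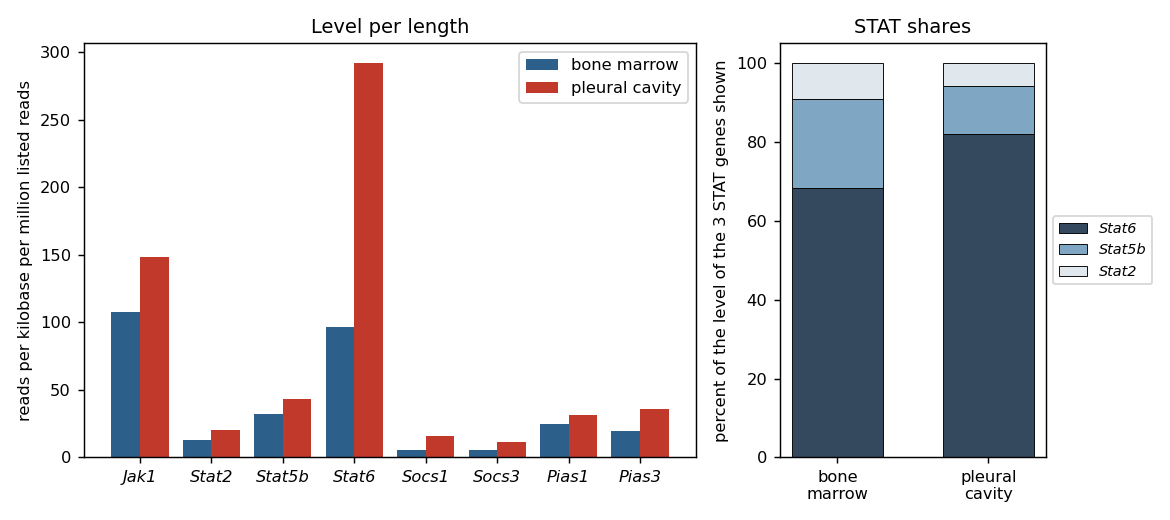
Left, level of each gene in RPM per kilobase in bone marrow (blue) and pleural cavity (red) eosinophils, bars being the authors' means scaled here, and right, percent of the summed level of Stat2, Stat5b and Stat6 that each makes up in a tissue. Stat6 is the tallest bar in the pleural cavity at 292.1, and its share is 68.2% in bone marrow and 82.1% in pleural cavity.

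Receptors that feed these kinases and STATs were taken from 3 lists. Counts over these and the following lists stand beside 42.5% higher, 16.0% over 2-fold higher and 50.5% over 2-fold lower among all listed genes. Among the 4544 abundant ones these shares were 53.1%, 19.3% and 38.0%, with a median log2 ratio of 0.33. Of 12 receptor genes for IL-5, beta common and type 2 cytokines, 7 were listed, 5 higher (Csf2rb not under median ratio scaling) and 2 lower. Their median log2 ratio was 0.46, near the 0.33 of abundant listed genes, and 0.017 under median ratio scaling. Il2rg, the common gamma chain, had 6391 mean reads in the pleural cavity against 1362 in the bone marrow, a ratio of 3.46. Il4ra, which joins it in the IL-4 receptor and engages STAT6, had 2117 and 807 mean reads, a ratio of 1.93. Csf2rb, the beta common chain for IL-3, IL-5 and GM-CSF, had 13367.1 and 8189.88 mean reads, a log2 ratio of 0.27, and its mouse paralog Csf2rb2 5400.32 and 2037.33, a ratio of 1.96, both with fractional reads. The TSLP receptor chain Crlf2 had a ratio of 1.38, and Il3ra, the IL-3 receptor alpha chain, was 3.16-fold lower with 139 against 323.5 mean reads. Il5ra was not listed.

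Interferon receptor chains did not share a direction, with 3 of 5 listed. Ifnar1 had 2978.76 mean reads in the pleural cavity against 1367.13 in the bone marrow, a ratio of 1.61 with fractional reads. Ifnar2, the other chain of the same receptor, had 1295 and 1748.5, 1.83-fold lower. Ifnlr1 was at 0 against 79.5 mean reads, at least 35.9-fold lower when 3 mean reads stand as the floor. Of the 25 genes for other cytokine receptors, 13 were listed, 5 over 2-fold higher and 8 over 2-fold lower. Lifr, the LIF receptor, had 2806.59 against 103.5 mean reads, a log2 ratio of 4.32, and Il12rb2, an IL-12 receptor chain that works through STAT4, 1407.82 against 121.56, a ratio of 8.54. Il10rb, a chain of the IL-10 receptor, had a ratio of 2.32 and Il6ra of 2.04. Csf3r, the G-CSF receptor of neutrophils, had 257.32 against 3626.01 mean reads and was 19.1-fold lower, and Il11ra1 was lower with 205 against 479.38.

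Few ligand genes were listed, 5 of 28, with 1 higher and 4 lower. Il4, which signals through STAT6, had 1342 mean reads in the pleural cavity against 438 in the bone marrow, a ratio of 2.26. Osm, a gp130 cytokine, had 3384 and 4249 mean reads, 1.70-fold lower in RPM, and Ebi3, a subunit of IL-27, was 1.82-fold lower. Il12a was at 5 against 77 mean reads, 20.9-fold lower, and Tslp at 1 against 46, at least 20.8-fold lower.

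Of 18 genes for phosphatases, adaptors and other regulators of the pathway, 11 were listed, 8 of them higher (Sh2b3 not under median ratio scaling) and 3 lower. Over 2-fold higher were 5 of the 11. Under median ratio scaling 1 of the 11 was, nearly the same share as the 525 of all 5807 listed genes there. Ptprc, which encodes the phosphatase CD45, had 56997.5 mean reads in the pleural cavity against 16478 in the bone marrow, a ratio of 2.55. Ptpn6, encoding SHP-1, had 35508.5 and 12762, a ratio of 2.05, and Ptpn1, encoding PTP1B, 16259 and 4640.5, a ratio of 2.58. Pdlim2, a ubiquitin ligase for STATs, had a ratio of 2.22 with fractional reads, and the adaptors Sh2b3 and Sh2b1 had ratios of 1.22 and 0.63. Usp18, which holds back the type I interferon receptor, had 1581 and 329.5 mean reads, a ratio of 3.54, and Dusp2, a dual specificity phosphatase gene, had 40.5 and 381, 12.8-fold lower. Both are named after their values were seen. The 11 genes had a median log2 ratio of 0.77, against -1.02 over all listed genes and 0.33 over the abundant ones.

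STAT partners were divided, with 8 of 13 listed genes higher (Crebbp not under median ratio scaling) and a median log2 ratio of 0.48, against 53.1% and 0.33 among abundant listed genes. Irf9, which is part of ISGF3 with Stat2, had 3349.5 mean reads in the pleural cavity against 1142 in the bone marrow, a ratio of 2.16. Among coactivators, Ncoa3 had a ratio of 3.45 and Crebbp of 1.25. The glucocorticoid receptor gene Nr3c1 had a ratio of 1.39, Irf1 of 2.07 and the histone deacetylase gene Hdac1 of 0.63.

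Of 41 textbook target genes of STATs, 25 were listed, 14 higher (Junb not under median ratio scaling) and 11 lower, with 10 over 2-fold higher and 8 over 2-fold lower. These are 56% higher, 40% over 2-fold higher and 32% over 2-fold lower, against 53.1%, 19.3% and 38.0% of abundant listed genes. Under median ratio scaling 8 of the 25 were over 2-fold higher and 11 over 2-fold lower. Among all 5807 listed genes these counts were 525 and 3326 there. The 6 with most reads were Junb, Ccnd3, Bhlhe40, Mcl1, Lcn2 and Osm. Mcl1, a survival factor, had 18738 mean reads in the pleural cavity against 2702.09 in the bone marrow, a ratio of 5.11 with fractional reads. The transcription factor gene Bhlhe40 had a ratio of 3.85 and Junb of 1.23, while Ccnd3, encoding cyclin D3, was 1.83-fold lower. Lcn2, a granule gene of neutrophils, had 95 against 17701 mean reads. The targets in the following sentences are outside these 6 and were named after their values were seen. Among those known for STAT6, Retnla had 6855.5 mean reads in the pleural cavity against 225 in the bone marrow, Arg1 841.5 and 21, and Ccl24 131 and 5, with ratios of 22.5, 29.6 and 19.3. The ratios of Arg1 and Ccl24 rest on few bone marrow reads. Il4ra, also on this list, had a ratio of only 1.93. Ccl17, which the list also holds, was not listed in the table. Interferon targets did not share a direction. Ifit2 had 15.5 against 292.5 and Ifit3 38.9 against 185.62 mean reads, whereas Oas1a had 1693.72 against 834.91, a log2 ratio of 0.58, Irf1 a ratio of 2.07 and Gbp2 of 8.52. The cell cycle inhibitor gene Cdkn1a had a ratio of 5.02 and the adhesion gene Icam1 of 3.92, while Myc was 14.6-fold lower. Gfi1, Vegfa, Bcl2 and Ccnd2 were also lower, by 39.6-fold, 38.0-fold, 7.20-fold and 5.10-fold. Bcl2l1 was 1.81-fold lower. Irf1, Osm and Il4ra stand on 2 lists.

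**Figure D5:**
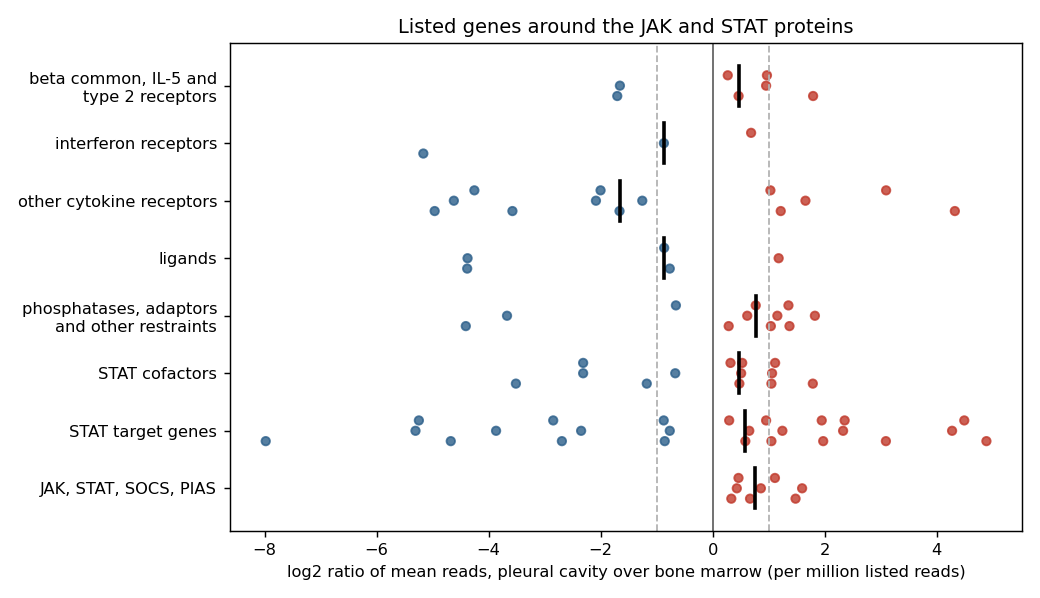
Log2 ratio of RPM, pleural cavity over bone marrow eosinophils, of the listed genes in 7 lists around the JAK and STAT proteins and of the 8 genes themselves, with genes as points (red above 0, blue below, at their bound where a mean is at most 3 reads), medians as black bars and dashed lines at 2-fold. All 8 genes and 8 of 11 phosphatases, adaptors and other regulators lie right of 0. Under median ratio scaling Stat5b, Pias1 and Sh2b3 would not. The other cytokine receptors spread to both sides with a median of -1.66.

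Marker genes of other cells also differed between the tissues, and their part in these ratios was not tested. Of eosinophil markers 10 of 11 were listed, 3 higher and 7 lower, together 0.812% of the listed reads in the pleural cavity against 9.57% in the bone marrow. Siglecf, Ccr3 and Gata1 had ratios of 2.22, 2.90 and 2.16, and the granule genes Prg2 and Epx were 508.1-fold and 552.1-fold lower in pleural cavity eosinophils. Prg3, Ear1, Ear2, Ear6 and Alox15 were also lower, from 3.59-fold for Alox15 to 490.9-fold for Ear1. All 14 neutrophil and granulocyte precursor markers were listed and lower, together 0.231% of the listed reads in the pleural cavity against 11.6% in the bone marrow. All 5 listed basophil and mast cell markers of 6 were lower, together 60.5 against 10756 mean reads. Of 10 macrophage and monocyte markers 7 were listed, 4 higher and 3 lower, with 0.502% and 0.987% of the listed reads. Csf1r had 20627.5 against 3973.5 mean reads, a ratio of 3.83, C1qa a ratio of 1.89, C1qb of 3.42 and Marco of 8.24. Lyz2, Mrc1 and Ly6c2 were lower, by 2.35-fold, 2.41-fold and 49.2-fold. Lymphoid markers (4 of 11 listed) summed to 525 and 10723.5 mean reads, of which Nkg7 gave 112 and 10432, while the B cell marker Ms4a1 was higher with 366 against 107. The erythroid marker Klf1 had 1.5 and 163 mean reads. None of the listed markers given here was at 0 in either tissue. With these marker genes other than the eosinophil ones taken out of the total, all 8 genes stayed higher and Stat6 and Socs1 alone stayed over 2-fold. This only moved every log2 ratio by -0.19. It takes no reads of other cells out of the 8 genes and so does not bear on their part.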

How the data were processed

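RNA from sorted eosinophils was sequenced as 2 libraries per tissue in paired reads of 100 bp. The authors trimmed reads with SOAPnuke, used HISAT2 2.1.0 and Bowtie2 2.2.5 for alignment, with GRCm38 as the genome, and estimated counts with RSEM 1.2.8. The deposited expected counts are the authors' means over the libraries of each tissue, not scaled for depth, and 25.8% of genes had fractional means, here meaning no multiple of 0.5. The authors' fold changes, p-values and q-values in the table were not used, and 0 columns per library were left unused. Depth per library is unknown.

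Mean reads were scaled here to the total of the listed genes (log2 offset 0.44). A mean of at most 3 reads was set to 3 for ratios, which are then bounds. No test was made, since groups have 1 mean each, and over 2-fold served as the threshold. Intervals are 95% exact binomial intervals on the doubled means and cover counting error only. Samples were grouped by title. Of the genes chosen by the rule and the marker genes, 1 each is not reported here. Members and lists of genes were chosen with earlier results of these data known. From each list the genes with most reads, at most 6, were named, and others are marked. Coordinates, transcripts and lengths come from GENCODE M21 on GRCm38, matched by Ensembl identifier, and promoters from RefSeq GRCm38.p6 by gene identifier. Alternatives covered scaling, threshold, low reads, fractional reads, transcript length and motif spacing. Scripts ran in Python 3.11.15 with matplotlib 3.10.9, scipy 1.17.1, numpy 2.4.6 and pandas 2.3.3.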

Additional observations from a re-analysis of the deposited data

How the results depend on the processing

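Against the main scaling, log2 ratios of all genes moved by 0.44 with unscaled reads, by -0.44 with the median ratio of genes over 1000 mean reads, by -0.20 without the 20 most abundant genes of each tissue, by -0.19 without marker genes of other cells and by -0.0072 with a trimmed mean. The median ratio turned Pias1 to -0.11 and Stat5b to -0.014. The number of the 8 genes over 2-fold higher, 3, was 5 with unscaled reads and 2 with the median ratio, without the most abundant genes and without marker genes. A 1.5-fold threshold gave 5 and a 4-fold threshold 0. Genes without fractional reads left 4 of the 8, all higher. Over all listed genes, 930 were over 2-fold higher. This was 1770 with unscaled reads, 525 with the median ratio, 1704 at 1.5-fold and 307 at 4-fold. The 2935 over 2-fold lower fell to 1725 among genes with at least 100 mean reads in 1 tissue. Of genes past 2-fold, 24.1% were higher under the main scaling, 41.4% with unscaled reads and 13.6% with the median ratio. Adding 1 mean read changed no direction among the 8. With the mean transcript length, Socs3 exceeded Socs1 in both tissues, at 27.1 against 15.9 in pleural cavity and 12.6 against 5.69 in bone marrow eosinophils. The number of promoter windows with a STAT motif was 1 with either spacing. No paired analysis was possible because the mean columns carry no replicate number, and leaving out a library was not run because no value per library was analysed.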
